A study of Mus musculus with 6 samples.

Results

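Glycolysis and the hypoxia response were examined in cultured cardiac fibroblasts (CFs) through 34 genes, among 19446 in the table. The genes were picked by symbol for what their proteins do, though with earlier results of these data known. They are 2 glucose transporters, 11 genes of upper glycolysis, 6 of lower glycolysis, 4 for the handling of pyruvate and lactate, 3 of oxygen sensing and 8 other targets of the hypoxia-inducible factor (HIF). Each of the 34 had a row, and each passed the filter of at least 10 reads in at least 2 libraries, which 15948 genes passed. The question of the design was whether expression differs between CFs of wild-type mice (WT) and of CharmeKO mice, which carry a polyadenylation signal inserted in *Charme*, a long non-coding RNA of muscle, to end its transcription early. Each group had 3 RNA-seq libraries of cultured cells from 5-week-old animals, on the C57BL/6J background according to the methods. The insertion is carried by every cell of a CharmeKO mouse, so the comparison is not limited to an effect arising within fibroblasts. Per the methods, explant cultures came from atrial tissue of littermates, at an age given there as a range around that of the labels, without saying whether animals were pooled, and were expanded in a rich serum medium with 2-mercaptoethanol on fibronectin, and no exposure to hypoxia is described. Neither the oxygen of the incubator nor what equal replicate numbers share is stated, so the p-values measure the spread between these libraries, which may be partly technical.

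Glycolysis turns glucose into pyruvate in the cytosol, and in proliferating cultured cells much of that pyruvate is reduced to lactate and exported even when oxygen is present. HIF-1α, the protein of *Hif1a*, is made continuously and, while oxygen lasts, is hydroxylated by the prolyl hydroxylases of the *Egln* genes and degraded. When oxygen falls it persists, pairs with ARNT and binds the core sequence RCGTG, where R is A or G, near most genes of glycolysis and near genes of angiogenesis, mitophagy and pH control. Control of HIF-1α thus acts mostly on the protein, so the mRNA of *Hif1a* is a poor gauge of HIF activity, while mRNAs of its targets are the usual readout.

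The regions around the start sites of these genes were searched for the core, as ACGTG or GCGTG on either strand, to show what the genes share in sequence. RefSeq promoters (build GRCm38.p6, 250 bases before to 50 after a start) were held for 32 of the 34 genes, 46 promoters in all, some of them overlapping, and *Slc2a3* and *Ndrg1* were not searched. At least 1 match stood in 37 of the 46 (80.4%), against 43.8% of all 32851 promoters and 59.8% of the 14450 promoters of genes that passed the read filter. At least 2 matches were in 60.9% of the 46, against 20.6% and 31.8%. The median GC content of the 46 was 62.2%, against 52.7% and 60.3%, and its part in the share of matches was not tested. A match is a run of letters and not a binding site. The sequences below include *Ldha* because it held the most matches of any of the 46 promoters. *Eno1* and *Eno2* were chosen because both encode an enolase and stood at opposite ends in the libraries numbered 2. *Pgk1* and *Bnip3* are classical HIF targets of glycolysis and of mitophagy. They read 5′ to 3′ along the gene, and capitals mark the matches, of which the palindrome CACGTG counts as 2, 1 on each strand.
Ldha, chr7:46845554-46845853, plus strand: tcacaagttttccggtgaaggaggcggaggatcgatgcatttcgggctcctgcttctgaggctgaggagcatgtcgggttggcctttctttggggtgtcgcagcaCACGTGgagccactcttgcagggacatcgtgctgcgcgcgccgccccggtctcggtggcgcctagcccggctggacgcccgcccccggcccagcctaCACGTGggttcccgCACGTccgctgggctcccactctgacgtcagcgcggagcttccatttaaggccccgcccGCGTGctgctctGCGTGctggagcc
Pgk1, chrX:106186850-106187149, plus strand: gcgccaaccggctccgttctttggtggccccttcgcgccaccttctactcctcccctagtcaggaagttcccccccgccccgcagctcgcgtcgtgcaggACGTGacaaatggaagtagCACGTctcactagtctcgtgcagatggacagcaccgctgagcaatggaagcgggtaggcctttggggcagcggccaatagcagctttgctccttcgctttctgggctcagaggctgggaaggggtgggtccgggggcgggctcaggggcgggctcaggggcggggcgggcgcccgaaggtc
Eno1, chr4:150236947-150237246, plus strand: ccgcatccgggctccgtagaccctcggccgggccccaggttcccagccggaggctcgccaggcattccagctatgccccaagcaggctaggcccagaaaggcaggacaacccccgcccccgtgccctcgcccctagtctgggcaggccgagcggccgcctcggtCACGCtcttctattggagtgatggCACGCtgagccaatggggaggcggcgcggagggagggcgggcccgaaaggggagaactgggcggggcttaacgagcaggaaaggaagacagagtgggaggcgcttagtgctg
Eno2, chr6:124769624-124769923, minus strand: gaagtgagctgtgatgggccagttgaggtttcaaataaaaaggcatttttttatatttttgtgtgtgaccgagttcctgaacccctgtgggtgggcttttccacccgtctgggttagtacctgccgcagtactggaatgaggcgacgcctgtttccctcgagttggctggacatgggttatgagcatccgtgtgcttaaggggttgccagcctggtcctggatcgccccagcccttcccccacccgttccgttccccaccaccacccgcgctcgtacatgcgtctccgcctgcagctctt
Bnip3, chr7:138909457-138909756, minus strand: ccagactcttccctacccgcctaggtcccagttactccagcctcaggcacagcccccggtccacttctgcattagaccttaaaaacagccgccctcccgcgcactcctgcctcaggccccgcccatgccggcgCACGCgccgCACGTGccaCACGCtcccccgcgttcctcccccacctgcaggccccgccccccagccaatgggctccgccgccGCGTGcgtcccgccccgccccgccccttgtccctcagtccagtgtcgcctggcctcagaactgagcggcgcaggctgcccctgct
The 7 matches of *Ldha* lay from 145 bases before to 37 bases after the start, and 4 of them formed 2 copies of CACGTG. *Pgk1* held 2 matches, *Bnip3* 5 and *Eno1* 2 in the promoter shown, while *Eno2* held none in this window, which says only that these letters are not there. An overlapping *Eno1* promoter holds the same pair of matches, and another one upstream, chr4:150236458-150236757, holds 2 others. *Vegfa* held 0 matches in the promoter at the 5′ end of the gene and 2 in its other one, which lies inside the gene. All 5 windows shown are set at RefSeq starts of protein-coding genes. Those of *Ldha* and *Eno1* lie inside the genes as GENCODE annotates them, chr7:46841475-46855627 and chr4:150236721-150248879.

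The libraries held 38330019 to 46797446 reads assigned to genes. The sum of 11 fibroblast markers was 25359 to 53665 CPM (reads scaled to the total of the library), and all 11 had reads, whereas 4 cardiomyocyte markers of 10 were in the table, summing to 3.43 to 18.5 CPM, with *Myh6*, *Myh7* and *Actc1* without a row. The entry taken as *Charme* (an inference, as it is the only one without an Ensembl identifier) was covered by 5, 15 and 11 reads in WT 1, 2 and 3 against 0, 6 and 3 in CharmeKO 1, 2 and 3, so that the groups overlapped at a very low level. Across genes, the libraries numbered 1 resembled each other in their deviations from the group means, as did those numbered 2 (r = 0.762 and 0.514). Those numbered 3 did so less, at r = 0.217, and no more than WT 2 and CharmeKO 3, at 0.222. Both views, over the groups and within each number, are given.

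None of the 34 genes differed between CharmeKO and WT past the threshold. Adjusted p-values of limma on log2(normalised reads + 1) were 1.00 for each, and 0 of 15948 genes were called (background 0%). Before adjustment, 143 genes had a p under 0.05 (background 0.897%) but 0 of the 34, whose lowest p was 0.160. edgeR called 0 genes and left 158 with an unadjusted p under 0.05, 0 of the 34 among them, and DESeq2 called 8 genes (0.0502%), again 0 of the 34. With the replicate block, DESeq2 called 64 genes (0.401%) and limma left 5.37% of genes with an unadjusted p under 0.05, and 0 of the 34 were in either group. For none of the 34 were all 3 CharmeKO libraries above or below all 3 WT libraries, against 4.11% of all genes. The mean log2 level was lower in CharmeKO for 25 of the 34 (background 49.6%), and the median log2 fold change was -0.20, against 0.00 over all genes. That lean rested on 1 library: without WT 3 the mean was lower for 14 of the 34, with a median of 0.09, and without both libraries numbered 3 for 13, with a median of 0.10. In these bulk samples, less of an mRNA per cell and fewer cells that express it cannot be told apart.

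**Figure D1:**
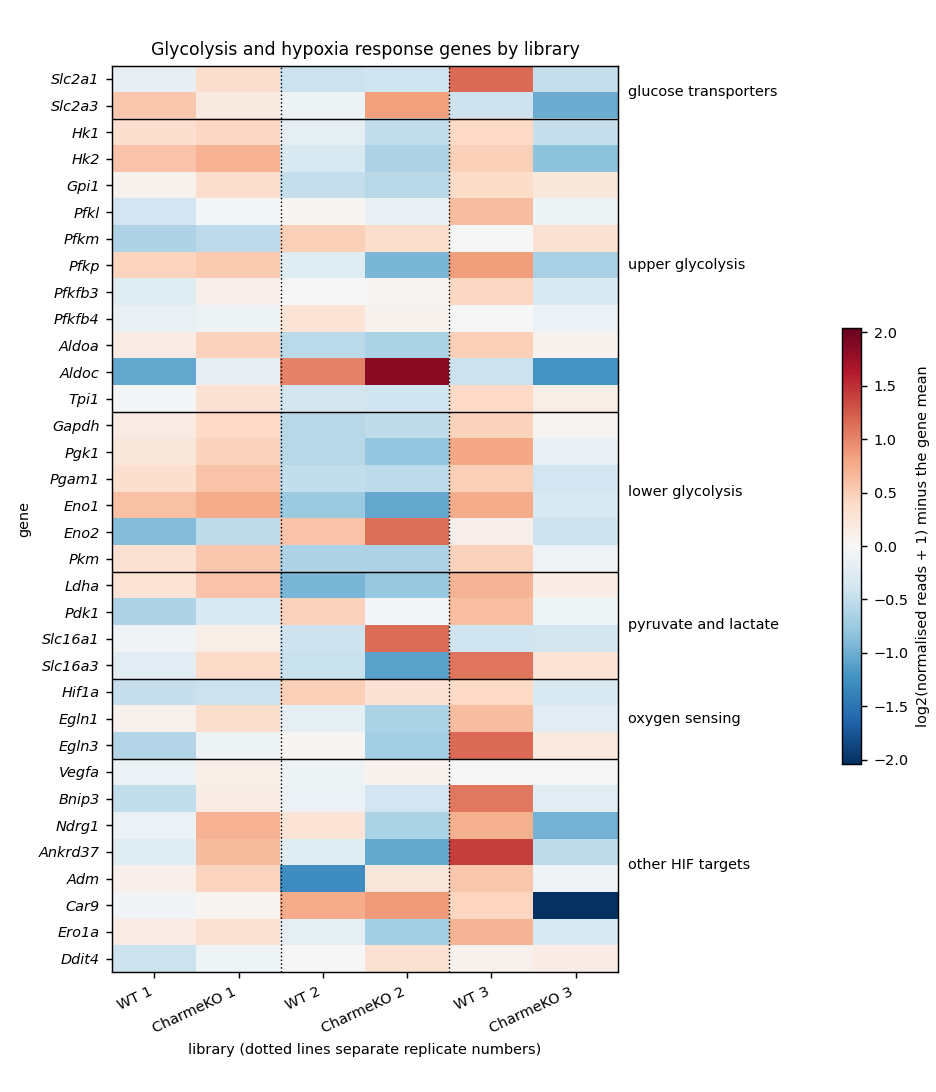
Heatmap of log2(normalised reads + 1) of the 34 genes (rows, by role) in the 6 libraries (columns, by replicate number), as the deviation from each gene's mean over the libraries. WT 3 was the highest library for 19 of the 34, and the libraries numbered 2 were the lowest pair for *Gapdh*, *Pgk1*, *Pgam1*, *Eno1* and *Pkm* but the highest for *Eno2*.

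*Slc2a1*, for the glucose transporter GLUT1, had 5075, 4204 and 12756 normalised reads in WT 1, 2 and 3 and 7367, 4294 and 4083 in CharmeKO 1, 2 and 3. WT 3 stood well above every other library and CharmeKO 3 was the lowest, so that the log2 fold change was -0.36 (SE 0.461, n = 3 per group). *Slc2a3*, for the high-affinity transporter GLUT3, had 157, 99.3 and 79.1 normalised reads in WT 1, 2 and 3 and 121, 192 and 52.2 in CharmeKO 1, 2 and 3. The groups overlapped fully, with a log2 fold change of -0.01 (SE 0.558), and the sign of so small a value turned with the scaling.

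In upper glycolysis, which spends ATP to split glucose into triose phosphates, 7 of 11 genes had a lower mean in CharmeKO and 4 a higher one, with a median log2 fold change of -0.10. Hexokinase traps glucose as glucose 6-phosphate. *Hk1* had 9396, 6548 and 9847 normalised reads in WT 1, 2 and 3 and 9965, 5227 and 5385 in CharmeKO 1, 2 and 3, and *Hk2*, the inducible form, had 7230, 3859 and 6750 normalised reads in WT 1, 2 and 3 and 7891, 3106 and 2689 in CharmeKO 1, 2 and 3. For both, CharmeKO 2 and 3 were the lowest libraries, and CharmeKO 1 was the highest. Their log2 fold changes of -0.37 (SE 0.310) and -0.50 (SE 0.460) were within the spread. *Gpi1*, for the isomerase that follows, ranged from 15549 to 29621 normalised reads with a log2 fold change of 0.03 (SE 0.345). 

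Phosphofructokinase commits the sugar to glycolysis and is encoded by 3 genes. The platelet-type gene *Pfkp* had the lowest mean in CharmeKO relative to WT of the glycolytic enzymes, with 2776, 1701 and 3667 normalised reads in WT 1, 2 and 3 and 2924, 1052 and 1273 in CharmeKO 1, 2 and 3. CharmeKO 2 and 3 were the lowest of the 6 and CharmeKO 1 lay between WT 1 and WT 3. The log2 fold change of -0.71 (SE 0.454, unadjusted p = 0.163, limma) kept its sign in every alternative fit but ran from -1.16 to -0.31 when a library or a number was left out. Its unadjusted p under the DESeq2 fit with the replicate block was 0.0337, with an adjusted p of 0.749. That fit gave 5.59% of all genes an unadjusted p under 0.05. *Pfkl*, the liver-type gene, ranged from 6378 to 13004 normalised reads (log2 fold change -0.18, SE 0.273). *Pfkm*, the muscle-type gene, went its own way, being highest in both libraries numbered 2 at 2679 and 2461 and lowest in both numbered 1 at 1240 and 1320. *Pfkfb3* and *Pfkfb4*, for the enzymes that make the activator fructose 2,6-bisphosphate, varied by 1.66 and 1.34 times over the 6 libraries, less than any other gene of glycolysis here.

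Aldolase and triose phosphate isomerase close upper glycolysis. *Aldoa* had 52197, 31873 and 65377 normalised reads in WT 1, 2 and 3 and 64308, 29702 and 48874 in CharmeKO 1, 2 and 3. Both libraries numbered 2 were the lowest, and the genotypes overlapped (log2 fold change -0.07, SE 0.408). *Aldoc*, the brain-type aldolase, was at a far lower level and highest in the libraries numbered 2, with 135 and 239.9 normalised reads there and 27.8 to 58.6 in the other 4. *Tpi1* ranged from 13065 to 22966 normalised reads with a log2 fold change of 0.01 (SE 0.289), whose sign depended on the method.

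Lower glycolysis earns the ATP. Per kb of exon, merged over all annotated transcripts, *Gapdh*, which oxidises glyceraldehyde 3-phosphate, had the highest mean of the 34 at 21225 normalised reads. It stood ahead of *Aldoa* at 16737, *Ldha* at 11117, *Pkm* at 10937, *Pgk1* at 9513 and *Eno1* at 8731. The order depends on the merged length, which was 2244 bases for *Pgk1* and 5379 for *Eno1*. *Gapdh* had 94343, 56889 and 117179 normalised reads in WT 1, 2 and 3 and 111869, 58589 and 87461 in CharmeKO 1, 2 and 3. The libraries numbered 2 were the lowest pair, the genotypes overlapped, and the log2 fold change was -0.04 (SE 0.414). Its level is uncertain, since reads that map to several places are dropped by the counting and 89 pseudogenes near-identical to *Gapdh* are annotated, 31 of them with a row of their own. *Ldha* has 5 such pseudogenes, *Pgk1* 4, *Eno1* 3 besides the near-identical gene *Eno1b*, and *Bnip3* 3. *Pgk1*, which makes the first ATP of the pathway, had 23416, 13399 and 34359 normalised reads in WT 1, 2 and 3 and 27485, 11502 and 17922 in CharmeKO 1, 2 and 3, and *Pgam1*, for the mutase after it, had 11206, 6240 and 12442 normalised reads in WT 1, 2 and 3 and 13205, 6100 and 6755 in CharmeKO 1, 2 and 3. Both were lowest in CharmeKO 2 and both were lower in CharmeKO 3 than in WT 3, with log2 differences of -0.94 and -0.88.

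The enolase genes *Eno1* and *Eno2* stood at opposite ends in the libraries numbered 2. Their log2 differences CharmeKO minus WT within numbers 1, 2 and 3 were 0.16, -0.28 and -1.07 for *Eno1* and 0.36, 0.54 and -0.53 for *Eno2*. Within numbers 1 and 3 they thus moved the same way. *Eno1*, the general form, had 62999, 24459 and 70187 normalised reads in WT 1, 2 and 3 and 70614, 20138 and 33375 in CharmeKO 1, 2 and 3. *Eno2*, the neuronal form and itself a HIF target, had 806, 2229 and 1596 normalised reads in WT 1, 2 and 3 and 1036, 3241 and 1105 in CharmeKO 1, 2 and 3. Where *Eno1* was lowest, in WT 2 and CharmeKO 2, *Eno2* was highest, and neither separated the genotypes, with log2 fold changes of -0.40 (SE 0.594) and 0.12 (SE 0.553). *Pkm*, for the pyruvate kinase that ends the pathway, had 64125, 33606 and 72108 normalised reads in WT 1, 2 and 3 and 75563, 33309 and 49477 in CharmeKO 1, 2 and 3, lowest again in both libraries numbered 2 (log2 fold change -0.11, SE 0.437). The reads do not tell its splice forms apart.

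Of the genes that handle pyruvate and lactate, *Ldha*, for the lactate dehydrogenase subunit that favours lactate, had 40932, 17724 and 54430 normalised reads in WT 1, 2 and 3 and 50376, 19840 and 37478 in CharmeKO 1, 2 and 3. The libraries numbered 2 lay below all others, and the log2 fold change was -0.03 (SE 0.526). *Pdk1*, for a kinase that limits the conversion of pyruvate to acetyl-CoA, had 1539, 3319 and 3640 normalised reads in WT 1, 2 and 3 and 1932, 2311 and 2235 in CharmeKO 1, 2 and 3. It was lowest in WT 1 and highest in WT 3, so both extremes were WT (log2 fold change -0.30, SE 0.340).

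The lactate exporters did not move as a pair. *Slc16a3*, for the HIF-induced exporter MCT4, had 4917, 4120 and 12188 normalised reads in WT 1, 2 and 3 and 7413, 2647 and 6928 in CharmeKO 1, 2 and 3. *Slc16a1*, for the broadly expressed MCT1, had 1551, 1213 and 1234 normalised reads in WT 1, 2 and 3 and 1804, 3596 and 1263 in CharmeKO 1, 2 and 3. CharmeKO 2 held the lowest *Slc16a3* and by far the highest *Slc16a1*. *Slc16a1* also had the lowest p of the 34 (log2 fold change 0.61, SE 0.382, unadjusted p = 0.160, limma) and was higher in CharmeKO within all 3 replicate numbers, by 0.22, 1.57 and 0.03, so that its mean difference came chiefly from number 2. Without CharmeKO 2 the log2 fold change was 0.19.

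**Figure D2:**
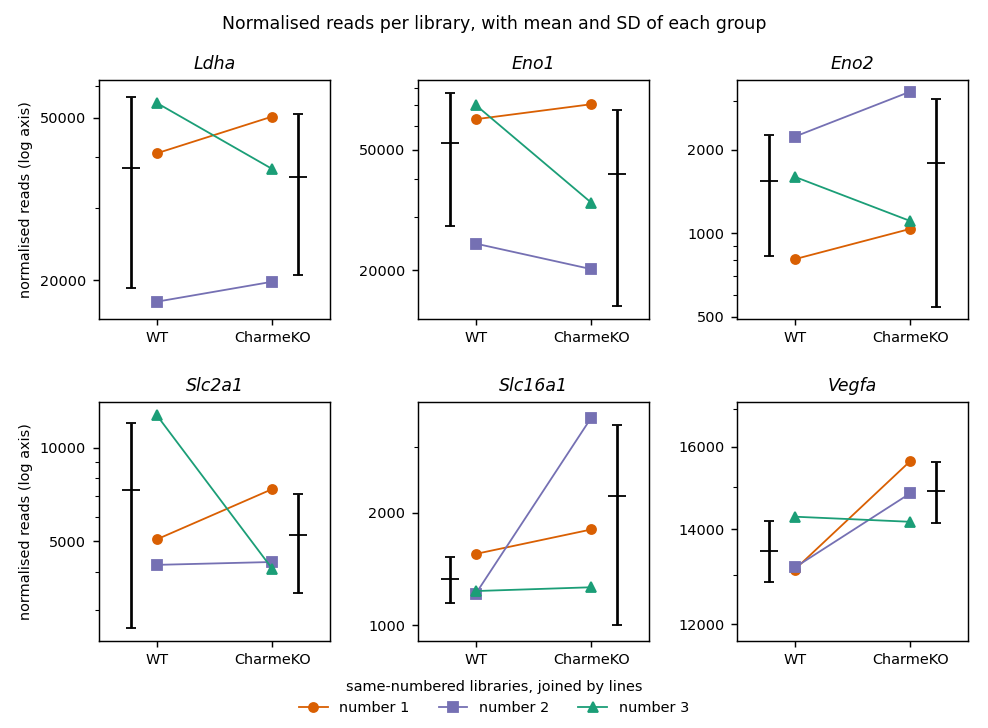
Normalised reads (log axis) of *Ldha*, *Eno1*, *Eno2*, *Slc2a1*, *Slc16a1* and *Vegfa* in WT and CharmeKO libraries, with lines that join libraries of the same replicate number and black bars for the mean and SD of each group (n = 3). *Slc2a1* ran from 12756 in WT 3 to 4083 in CharmeKO 3, and *Vegfa* stayed between 13113 and 15635.

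For oxygen sensing, *Hif1a* had 11902, 23121 and 21812 normalised reads in WT 1, 2 and 3 and 12144, 20217 and 13296 in CharmeKO 1, 2 and 3. Both libraries numbered 1 and CharmeKO 3 were the low ones, and the log2 fold change was -0.29 (SE 0.337). *Egln1*, for the main oxygen sensor PHD2, had 5976, 4893 and 8679 normalised reads in WT 1, 2 and 3 and 7215, 3578 and 4761 in CharmeKO 1, 2 and 3, and *Egln3*, for PHD3, a HIF target that is itself induced by hypoxia, had 843, 1303 and 2838 normalised reads in WT 1, 2 and 3 and 1184, 786 and 1469 in CharmeKO 1, 2 and 3. Both were highest in WT 3 and lowest in CharmeKO 2. Their log2 fold changes were -0.35 (SE 0.326) and -0.40 (SE 0.472).

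Among the other HIF targets, *Vegfa*, for the main growth factor of vessels, had 13113, 13156 and 14284 normalised reads in WT 1, 2 and 3 and 15635, 14838 and 14166 in CharmeKO 1, 2 and 3. The 6 libraries spanned 1.19 times, the narrowest range of the 34, and the log2 differences CharmeKO minus WT were 0.25, 0.17 and -0.01 within numbers 1, 2 and 3. Its log2 fold change of 0.14 (SE 0.159, adjusted p = 1.00, limma) was positive in all 22 alternative fits, from 0.08 to 0.21, without passing the threshold in any of them. Genotype took 59.1% of its variance over the 6 libraries and the replicate number 2.75%, against medians of 8.68% and 64.1% over the 34.

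*Bnip3*, for a mitophagy receptor, had 2378, 3117 and 7134 normalised reads in WT 1, 2 and 3 and 3777, 2579 and 2923 in CharmeKO 1, 2 and 3. *Ankrd37*, a small and sensitive HIF target, had 80.8, 81.1 and 259 normalised reads in WT 1, 2 and 3 and 152, 46.2 and 67 in CharmeKO 1, 2 and 3, and *Ndrg1*, which hypoxia induces in many cell types, had 1099, 1447 and 1980 normalised reads in WT 1, 2 and 3 and 1960, 761 and 609.7 in CharmeKO 1, 2 and 3. All 3 were highest in WT 3, were higher in CharmeKO 1 than in WT 1, and were lower in CharmeKO 3 than in WT 3, with log2 differences of -1.29, -1.94 and -1.70. *Ero1a*, for an oxidase of the endoplasmic reticulum, ranged from 5818 in CharmeKO 2 to 15198 in WT 3 (log2 fold change -0.46, SE 0.335).

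*Adm*, for the vasodilator peptide adrenomedullin, had 7068, 2719 and 9682 normalised reads in WT 1, 2 and 3 and 9036, 7753 and 6237 in CharmeKO 1, 2 and 3. WT 2 was by far the lowest library, and the log2 fold change was 0.41 (SE 0.467). *Ddit4*, for an inhibitor of mTORC1, had 1560, 2092 and 2253 normalised reads in WT 1, 2 and 3 and 1980, 2609 and 2348 in CharmeKO 1, 2 and 3 and was higher in CharmeKO within all 3 numbers, by 0.34, 0.32 and 0.06, as were 16.4% of all genes (log2 fold change 0.24, SE 0.204, unadjusted p = 0.279, limma). *Car9*, for a carbonic anhydrase that is close to silent in many cells with ample oxygen, was covered by only 10, 17 and 13 reads in WT 1, 2 and 3, against 11, 20 and 2 in CharmeKO 1, 2 and 3, so that its log2 fold change of -0.76 (SE 0.849) rested on counts near the floor of 3 reads in CharmeKO 3.

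The clearest order in the values lay within the replicate numbers, and it was noticed after the values had been seen. Between the libraries numbered 1, CharmeKO was higher for 33 of the 34 genes (background 53.2%), with a median log2 difference of 0.28. Between those numbered 3 it was lower for 31 (background 50.4%), with a median of -0.73, and between those numbered 2 it was lower for 22 (background 48.3%), with a median of -0.11. Over all genes the medians were 0.02, -0.01 and 0.01 for numbers 1, 3 and 2. CharmeKO was higher in number 1 and lower in number 3 for 30 of the 34 (background 26.3%), the exceptions being *Slc2a3*, *Pfkm*, *Slc16a1* and *Ddit4*. It was lower within all 3 numbers for 0 of the 34 (background 14%) and higher within all 3 for 2 (background 16.4%), *Slc16a1* and *Ddit4*.

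The genes are co-regulated and each number is 1 library against 1, so these counts describe 3 pairs of libraries and carry no test. With plain library sizes in place of size factors the counts were 33, 30 and 19 for numbers 1, 3 and 2, and with TMM scaling 33, 30 and 22. WT 3 was the highest of the 6 libraries for 19 of the 34 (background 14.3%), and CharmeKO 2 was the lowest for 14 (background 17.2%). The sum of 10 smooth muscle and pericyte markers, all of which had reads, moved along with number 3, with 3268, 691 and 5774 CPM in WT 1, 2 and 3 and 3062, 212 and 714 in CharmeKO 1, 2 and 3, where *Acta2* alone gave 2279, 445 and 3685 and 2110, 138 and 497. *Tagln* gave much of the rest, with 1490 CPM in WT 3 and 154 in CharmeKO 3. Only *Rgs5* was higher in CharmeKO 3, at 1.86 against 1.22 CPM. The study stained αSMA, the protein of *Acta2*, to follow conversion to myofibroblasts, so the sum is not particular to smooth muscle and pericytes. The sum of the 11 fibroblast markers was higher in CharmeKO 3, at 42779 CPM against 31687 in WT 3. Those of cardiomyocyte and proliferation markers were close, at 3.95 against 3.43 and 535 against 552 CPM. Further marker sums were lower in CharmeKO 3 than in WT 3. That of 7 endothelial markers (*Emcn* was without a row) was 31.2 against 95.1 CPM there, within 63.9 to 95.1 in WT and 31.2 to 149 in CharmeKO. Nearly all of it was *Flt1*, at 29.5 against 91.0 CPM, while *Pecam1* and *Cdh5* were close to 0. That of 7 mesothelial markers (*Krt8* was without a row) was 21.8 against 65.2 CPM, within 39.5 to 310.02 in WT and 21.8 to 345 in CharmeKO. That of 10 haematopoietic markers was 25.2 against 45.8 CPM, within 45.8 to 191 in WT and 25.2 to 406 in CharmeKO, and like most of the 34 genes it was higher in CharmeKO 1, at 406, than in WT 1, at 191. Which cells these markers came from was not tested, nor was the part of such cells in the differences. Among the 31 genes the log2 difference within number 3 ran from -0.01 for *Vegfa* to -2.48 for *Car9*, with *Ankrd37*, *Ndrg1* and *Slc2a1* next to *Car9*, and it was -1.07 to -0.42 for the genes of lower glycolysis.

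**Figure D3:**
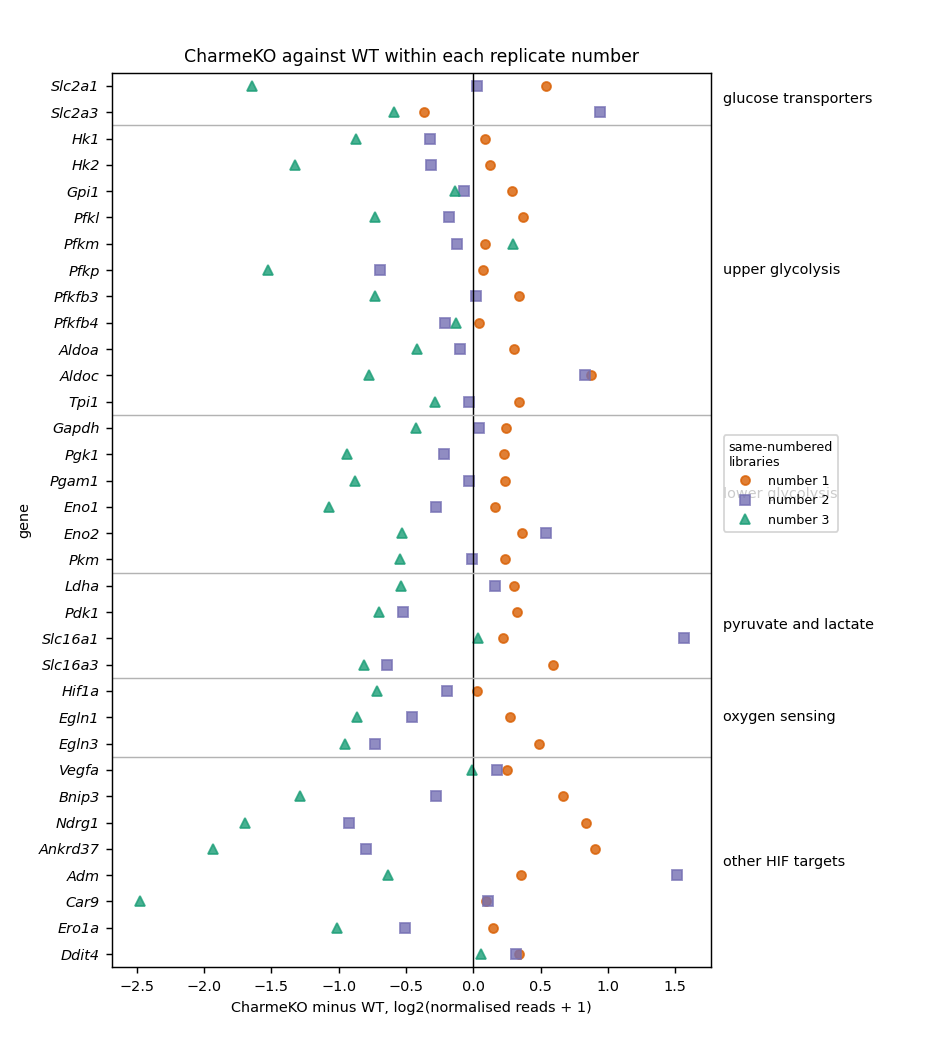
Difference CharmeKO minus WT in log2(normalised reads + 1) for each of the 34 genes (rows, by role) between libraries of the same replicate number (circles number 1, squares number 2, triangles number 3). Circles lie right of 0 for 33 genes and triangles left of 0 for 31.

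The libraries numbered 2 differed from the rest in another way. Both were the lowest 2 of the 6 for 10 of the 34 genes (background 18.5%), namely *Gpi1*, *Aldoa*, *Tpi1*, *Ldha*, *Slc16a3* and 5 of the 6 genes of lower glycolysis, all but *Eno2*. Both were the highest 2 for 5 genes (background 16.1%), *Pfkm*, *Pfkfb4*, *Aldoc*, *Eno2* and *Car9*. The 34 genes took 1.15%, 0.771% and 1.5% of all reads in WT 1, 2 and 3 and 1.35%, 0.780% and 1.03% in CharmeKO 1, 2 and 3, so that the genotypes overlapped. Most of that came from *Gapdh*, *Pkm*, *Aldoa*, *Eno1* and *Ldha*. Together these took 0.740%, 0.402% and 0.897% in WT 1, 2 and 3, against 0.867%, 0.413% and 0.631% in CharmeKO 1, 2 and 3. The sum of 10 proliferation markers was also lowest in the libraries numbered 2, at 202 and 196 CPM against 450 to 552 in the other 4, and each of the 10 had both libraries numbered 2 as its lowest 2. Its part in the lower levels was not tested.

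Of the variance over the 6 libraries, the replicate number took a median of 64.1% for the 34 genes and 73.8% for all genes, and genotype a median of 8.68% and 5.91%. The genes of lower glycolysis had the larger share for the number, with a median of 84.3%, and the 8 other HIF targets the smaller, with 35.4%. The remainder was 11.7% for the former and 45.5% for the latter. It mixes genotype differences that change from number to number with the spread between libraries and counting error. These parts cannot be told apart without replicate libraries of the same genotype and number.

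The balance between isozymes was compared as the log2 ratio of 10 pairs of genes, which removes the scaling of the library. For none of the 10 ratios was a difference between genotypes detected (2-sided exact permutation test over the 3 and 3 libraries, p from 0.4 to 1, where 0.1 is the smallest possible, all 10 adjusted p = 1). *Pfkp* to *Pfkl* was lower in CharmeKO in all 3 numbers, with a mean of -1.79 ± 0.568 (SD, n = 3) in WT and -2.32 ± 0.722 in CharmeKO (exact permutation p = 0.4). *Eno2* to *Eno1* was higher in CharmeKO in all 3 numbers, -5.07 ± 1.46 in WT and -4.55 ± 1.76 in CharmeKO (exact permutation p = 0.6). With 3 pairs, the exact sign-flip test could not give less than 0.25, its value for both.

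Shares per exon length were taken among those of the 34 genes that serve the same step. The length was that of all annotated exons of a gene merged over its transcripts, which can exceed that of the transcripts expressed. *Hk1* held 46.9% to 58.4% of its pair with *Hk2*. *Pfkl* made up 58.0% to 69.6% of the normalised reads per kb of the 3 phosphofructokinase genes, *Pfkm* 20.6% to 37.8% and *Pfkp* 4.03% to 13.5%. The order of *Pfkm* and *Pfkp* rests on their merged lengths, 3340 and 13401 bases. Before division by length, *Pfkp* had more normalised reads than *Pfkm* in WT 1 (2776 against 1240), WT 3 and CharmeKO 1, and fewer in the rest. *Aldoa* held at least 99.3% of its pair with *Aldoc*, and *Slc2a1* at least 97.9% of its pair with *Slc2a3*. With *Slc2a4*, *Slc2a10* and *Slc2a12* of a wider list counted in, *Slc2a1* held 84.1% to 92.3% and *Slc2a10* 7.42% to 15.3%. *Eno2* made up 9.44% and 15.5% of its pair with *Eno1* in WT 2 and CharmeKO 2 but 1.44% to 3.65% in the other libraries. With *Eno3*, the muscle form, counted in, *Eno2* made up 1.4% to 14.5% and *Eno3* 2.35% to 21.7%, the highest share of *Eno3* being that in CharmeKO 3. *Slc16a3* held 72.5%, 73.9% and 89.2% of its pair with *Slc16a1* in WT 1, 2 and 3 and 77.4%, 38% and 82% in CharmeKO 1, 2 and 3, so CharmeKO 2 was the only library in which *Slc16a1* had the larger share.

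**Figure D4:**
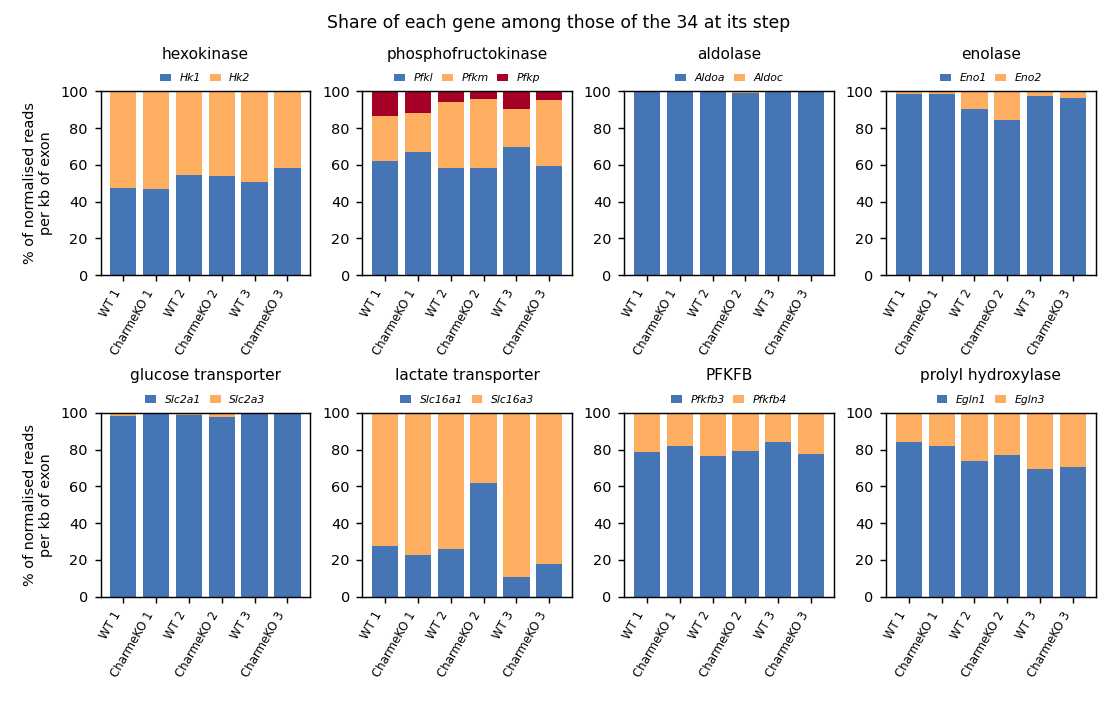
Share of each gene, in percent of normalised reads per kb of exon, at 8 steps with more than 1 gene in the set (stacked bars from 0 to 100) in each library, ordered by replicate number. *Slc16a3* stood at 38% in CharmeKO 2, and *Eno2* reached 15.5% of its pair with *Eno1* there and 9.44% in WT 2.

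*Gapdh* and *Hprt* served as the study's reference genes for RT-qPCR. *Gapdh* ranged over 2.06 times across the libraries and *Hprt* over 2.16 times, and both were lowest in the libraries numbered 2. The log2 ratio of *Gapdh* to *Hprt* was 5.21 ± 0.383 (SD, n = 3) in WT and 5.12 ± 0.213 in CharmeKO (exact permutation p = 0.8). Of 10 other common reference genes, 3 ranged more widely than *Gapdh*, up to 6.08 times, and the steadiest ranged over 1.35 times.

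The pathway around the 34 genes was described with a wider list of 80, of which 74 passed the filter. Of these 74, 0 were called by limma, 0 had an unadjusted p under 0.05, and edgeR and DESeq2 called 0. The mean was higher in CharmeKO for 36 and lower for 38, with a median log2 fold change of -0.01. CharmeKO was higher in number 1 for 54 of the 74 and lower in number 3 for 43, and both held for 30 (40.5%, background 26.3%). Of the 20 further HIF targets, among them prolyl 4-hydroxylases of collagen, CharmeKO was higher in number 1 for 18 and lower in number 3 for 14, with medians of 0.22 and -0.42. The groups did not overlap for 4 of the 74 (5.41%, background 4.11%). With the replicate block, limma gave 4 of the 74 an unadjusted p under 0.05 (background 5.37%) and called 0.

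The 16 genes of the TCA cycle, which oxidises acetyl-CoA in the mitochondria, had a median log2 fold change of 0.11, with 3 of the 16 lower in CharmeKO on average (background 49.6%). Within numbers 1 and 2, 14 and 12 of the 16 were higher in CharmeKO, but within number 3 they divided into 8 higher and 8 lower, with a median log2 difference of -0.00057. The 11 genes that carry pyruvate to acetyl-CoA had a median log2 fold change of 0.18, with 3 lower. *Suclg1*, for a subunit of succinyl-CoA ligase, had the lowest p of both groups, with 1812, 1499 and 1727 normalised reads in WT 1, 2 and 3 and 2070, 1898 and 2001 in CharmeKO 1, 2 and 3. The groups did not overlap, as for 4.11% of all genes, yet the log2 fold change of 0.25 (SE 0.151, adjusted p = 1.00, limma) did not pass the threshold. *Mdh1* and *Sdhc*, for malate dehydrogenase and a subunit of succinate dehydrogenase, had log2 fold changes of 0.23 (SE 0.160) and 0.23 (SE 0.163). When a library or a number was left out, the log2 fold change ran from 0.17 to 0.31 for *Suclg1*, 0.14 to 0.32 for *Mdh1* and 0.10 to 0.33 for *Sdhc*.

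The lowest p of the wider list was that of *G6pdx*, for the enzyme that opens the pentose phosphate pathway and so draws glucose 6-phosphate away from glycolysis, with 3792, 3095 and 2617 normalised reads in WT 1, 2 and 3 and 5233, 3016 and 6371 in CharmeKO 1, 2 and 3. CharmeKO 1 and 3 were the highest libraries, CharmeKO 2 was below 2 of the WT libraries, and the log2 fold change was 0.57 (SE 0.308, unadjusted p = 0.110, limma). *Arnt2*, a partner of HIF subunits, followed with 3067, 2029 and 2318 normalised reads in WT 1, 2 and 3 and 3184, 2619 and 4083 in CharmeKO 1, 2 and 3 and was higher in CharmeKO within all 3 numbers (log2 fold change 0.41, SE 0.238). *Slc16a7*, for the transporter MCT2, was covered by 7 to 62 reads per library and had a log2 fold change of -1.10 (SE 0.751). When a library or a number was left out, the log2 fold change ran from 0.21 to 0.88 for *G6pdx*, 0.21 to 0.59 for *Arnt2* and -1.77 to -0.32 for *Slc16a7*, so that all 3 kept their sign and not their size.

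**Figure D5:**
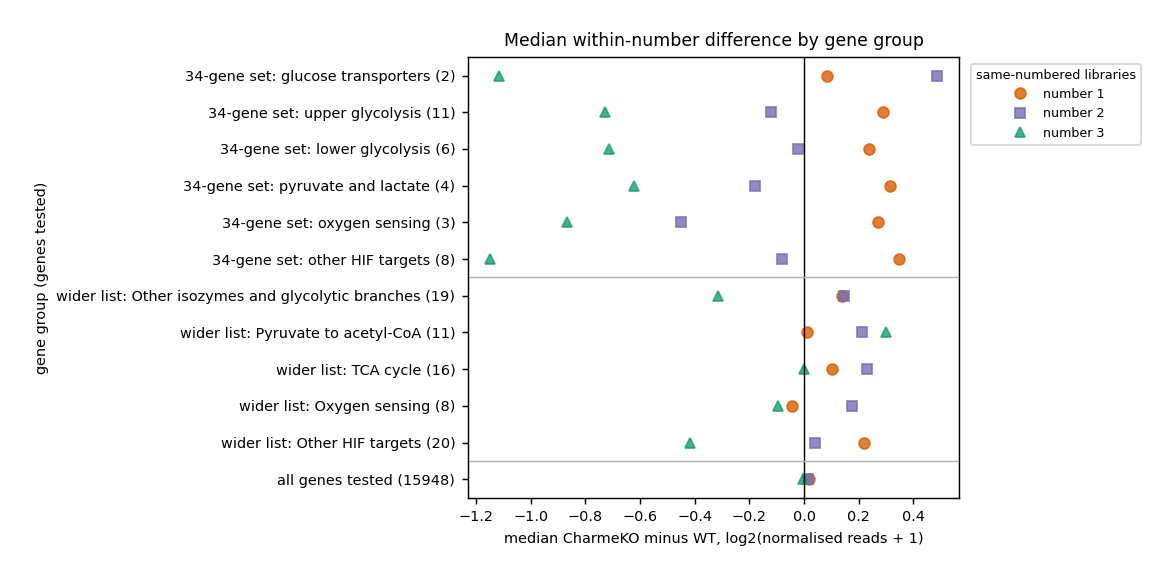
Median difference CharmeKO minus WT in log2(normalised reads + 1) between libraries of the same replicate number, for the 6 roles of the 34-gene set, the 5 groups of the wider list and all 15948 genes tested (rows, with the number of genes). The 6 roles lie above 0 in number 1 (0.09 to 0.35) and at -0.62 or lower in number 3, while the medians of all genes lie at 0.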

How the data were processed

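The study had RNA from cultured CFs sequenced after poly(A) selection with a directional kit. Per the methods, the authors aligned reads with STAR, counted reads per gene with its own gene counting on the reverse strand, on an Ensembl annotation to which *Charme* had been added, and used DESeq2 for normalisation. What they deposited is thus a signal of counts over library size factors, and of its 116676 values 100% were whole multiples of what 1 read is worth. The methods name a mouse assembly as GMCm39, and the submitters' processing notes list GRCm39 and GRCh38. Coordinates and exon lengths here are those of GRCm38 and were used only for promoters, per-length levels and near-identical copies (BLAST+ 2.17.0, at least 95% identity over 200 bases). The gene counting keeps reads that map to 1 place and 1 gene, and *Hif1a*, *Pfkm* and *Pkm* each overlap an exon of another gene on their strand.

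The 34 genes, the wider list, the markers and the tests were chosen with earlier results of these data known. Values are given as normalised reads. Every one of the 34 genes is named, and of the wider list the 6 genes with the lowest p. Because the values are normalised, the main test was limma 3.58.1 with a trend on log2(value + 1), without a block, over 15948 genes, with Benjamini-Hochberg adjustment and a threshold of 0.05. edgeR 4.0.16 and DESeq2 1.42.0 were run on the recovered reads in R 4.3.3, and 22 alternative fits were made in all. All tests were 2-sided. Scripts were tested on simulated data. The replicate numbers come from the sample titles. Deviations of same-numbered libraries from their group means were correlated across genes with r = 0.762, 0.514 and 0.217 for numbers 1, 2 and 3. For different numbers r was -0.643 to 0.222. All 3 were over the limit of 0.1, so the numbers were taken to pair the libraries, although the labels do not say what they share. For number 3 the pairing is weak, as its r was below that of WT 2 with CharmeKO 3. The total reads set the depth, and a count of 0 allows up to 3 reads, 0.0641 to 0.0783 CPM. Such limits cover counting error only.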

Additional observations from a re-analysis of the deposited data

How the results depend on the processing

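No call on the 34 genes or the wider list changed in any of the 22 alternative fits. The number of genes called over the whole table was 0 except with DESeq2, at 8, and with DESeq2 and the replicate block, at 64. The pairing by replicate number changed no call on the 34 genes: limma, edgeR and DESeq2 with the replicate block each called 0 of them, and the median log2 fold change with the limma block was -0.20. The number of the 34 with a lower mean in CharmeKO ran from 13 (without both libraries numbered 3) to 27 when a library or a number was left out, and from 23 to 25 in the 13 other fits. The cause of the smaller counts was not tested.

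The log2 fold change of *Slc2a3* turned to 0.13 with edgeR, 0.12 with DESeq2, 0.029 with plain library sizes, 0.0081 with totals that leave out the 10 most abundant genes and 0.00056 with a pseudocount of 5, that of *Tpi1* to -0.0038 with DESeq2 and that of *Ldha* to 0.0091 with plain library sizes. Leaving out a library or a number turned the direction of 23 of the 34 genes, while 11 kept it in all fits but not their size, with log2 fold changes from -0.67 to -0.12 for *Hk1*, -0.99 to -0.093 for *Hk2*, -1.16 to -0.31 for *Pfkp*, -0.69 to -0.07 for *Pdk1*, 0.13 to 0.94 for *Slc16a1*, -0.60 to -0.082 for *Hif1a*, -0.66 to -0.09 for *Egln1*, 0.081 to 0.21 for *Vegfa*, -1.31 to -0.046 for *Ndrg1*, -0.76 to -0.18 for *Ero1a* and 0.082 to 0.35 for *Ddit4*. For the 23 they ran from -0.81 to 0.28 for *Slc2a1*, -0.48 to 0.50 for *Slc2a3*, -0.21 to 0.31 for *Gpi1*, -0.46 to 0.10 for *Pfkl*, -0.20 to 0.38 for *Pfkm*, -0.35 to 0.18 for *Pfkfb3*, -0.19 to 0.018 for *Pfkfb4*, -0.36 to 0.23 for *Aldoa*, -0.54 to 1.00 for *Aldoc*, -0.18 to 0.21 for *Tpi1*, -0.34 to 0.21 for *Gapdh*, -0.67 to 0.0093 for *Pgk1*, -0.57 to 0.10 for *Pgam1*, -0.88 to 0.027 for *Eno1*, -0.41 to 0.45 for *Eno2*, -0.45 to 0.19 for *Pkm*, -0.50 to 0.35 for *Ldha*, -0.73 to 0.19 for *Slc16a3*, -0.84 to 0.082 for *Egln3*, -0.78 to 0.20 for *Bnip3*, -1.37 to 0.052 for *Ankrd37*, -0.14 to 0.93 for *Adm* and -1.38 to 0.10 for *Car9*. For the log2 ratios they ran from -0.35 to 0.98 for *Slc2a3* to *Slc2a1*, -0.31 to 0.027 for *Hk2* to *Hk1*, -0.11 to 0.59 for *Pfkm* to *Pfkl*, -0.27 to 0.18 for *Pfkfb4* to *Pfkfb3*, -0.77 to 1.26 for *Aldoc* to *Aldoa*, -0.44 to 1.33 for *Eno2* to *Eno1*, -1.53 to 0.0031 for *Slc16a3* to *Slc16a1*, -0.40 to 0.20 for *Egln3* to *Egln1* and -0.29 to 0.10 for *Gapdh* to *Hprt*. Of the 34 genes, *Car9* had the fewest reads, 2 to 20 per library, so that counting error bears on it the most.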
